A study of Drosophila melanogaster with 6 samples.

Results

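The regions described here are the 1007 peaks wider than 1 kb on Uextra, among 10412 peaks on that sequence and 13745 peaks in the whole deposited list. They were chosen by their measured width, with the outermost bases of each peak counted, so width is a description here and carries no test. The score comes from the same peak calling as the width and is treated in the same way. Uextra is a sequence of release 5 of the Drosophila melanogaster genome that strings together small scaffolds with no known chromosomal place.

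The peaks come from chromatin immunoprecipitation and sequencing (ChIP-seq) of wandering larvae in the third instar, of unknown sex. The antibody of the 3 ChIP libraries was a mouse monoclonal, labelled as directed against tango, and there were 3 libraries of input DNA from the same strain and stage. The series title and the titles of all libraries name TCF in place of tango, so the precipitated protein is not certain. All larvae, those behind the input included, were of the Y cn bw sp strain, and the labels name no treatment. They carried the marker alleles y[1], cn[1], bw[1] and sp[1]. The other listed alleles were oc[R3.2], CG33964[R4.2], lab[R4.2], Gr22d[1], Gr22b[1], Rh6[1], GstD5[1], LysC[1] and MstProx[1]. A whole larva mixes many cell types, so a region bound in a few of them and one bound weakly in many cannot be told apart.

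Tango is the fly relative of ARNT, a transcription factor of the bHLH-PAS class. It enters the nucleus and binds DNA as the common partner of tissue-specific factors such as Single-minded in the central nervous system midline, Trachealess in the airways and Spineless in antenna and leg. TCF, also named Pangolin, is the DNA-binding end of Wingless signalling. Unplaced scaffolds of the fly genome are rich in satellite DNA and transposable elements from heterochromatin, and reads from such repeats can align to several copies. No gene or repeat annotation of Uextra was used here, so the regions are named by position.

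The wide peaks made up 9.67% of all Uextra peaks (95% Wilson interval 9.12 to 10.3%) and covered 1532 of the 6712 kb that Uextra peaks covered, or 22.8%. Their median width was 1431 bp, with quartiles of 1292 and 1593 bp and a maximum of 5936 bp. The median of their scores was 120.78 (quartiles 102 and 154), on the deposited scale, which is the authors' own. Uextra peaks up to 1 kb had a median width of 566 bp and a median score of 69.0 (quartiles 27.1 and 106). A score of at least 100 was held by 791 of the wide peaks (78.6%, 95% Wilson interval 75.9 to 81.0%) and by 2803 of the 9405 narrower ones (29.8%). Among peaks with at least the median score of the whole list, the share of wide peaks was 16.0%. No test was made, since width and score come from 1 peak calling. There is 1 list for all libraries, so no value has a replicate error, and the read depth is unknown.

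The width limit lay next to a trough of the width distribution. Uextra peaks were most frequent at 651 to 700 bp, where 1052 were counted, and their number per 50 bp fell to 84 at 951 to 1000 bp and to 32 at 1051 to 1100 bp. It was higher again at 1401 to 1450 bp, with 107 peaks, lower at 1851 to 1900 bp, with 7, and between 11 and 17 for each 50 bp from 1901 to 2200 bp. The wide peaks thus formed a separate hump and not only the tail of the narrow ones. Of the 1007, 596 (59.2%) were over 1200 and up to 1600 bp wide. Another 167 were narrower than that, 121 were over 1600 and up to 2000 bp, 94 were over 2000 and up to 2500 bp, 17 were over 2500 and up to 3000 bp, and 12 were wider.

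**Figure D1:**
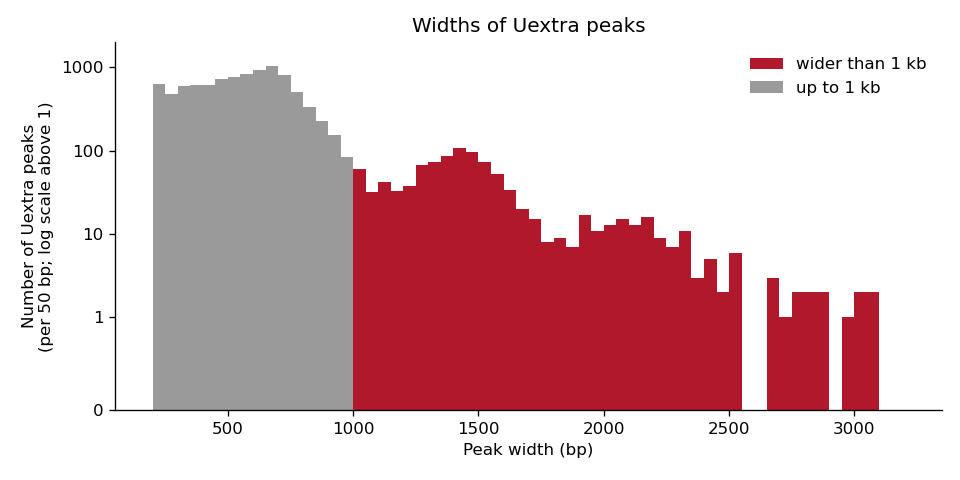
Number of Uextra peaks per 50 bp of width, on a log scale above 1, with peaks wider than 1 kb in red and narrower ones in grey. The red bars reach 107 peaks at 1401 to 1450 bp and have a lower hump near 2100 bp. The 8 peaks wider than 3200 bp are not drawn.

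Next to the limit, 84 Uextra peaks were 951 to 1000 bp wide and 60 were 1001 to 1050 bp wide. The narrowest inside the limit was at Uextra:28561996-28562996 (1001 bp, score 189.19). It was followed by 4 peaks of 1002 bp, at Uextra:2619786-2620787 (score 71.53), Uextra:2658193-2659194 (score 68.98), Uextra:28142440-28143441 (score 201.36) and Uextra:28283981-28284982 (score 387.38). Just outside it were 3 peaks of 996 bp, at Uextra:2338833-2339828 (score 134.54), Uextra:3038799-3039794 (score 94.21) and Uextra:3668760-3669755 (score 137.74). Scores on both sides of the limit overlapped. The peaks of 1001 to 1200 bp were spread unlike the rest, with 58 of the 167 in the first 4 Mb of Uextra, 59 between 4 and 26 Mb and 50 after 26 Mb. All wide peaks together had 84, 785 and 138 in these stretches.

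The recurrent width was not fixed but shrank along Uextra. From 4 to 6 Mb the 35 wide peaks had a median width of 1828 bp. From 10 to 12 Mb the median of 48 was 1568 bp, and from 20 to 22 Mb that of 98 was 1443 bp. It was 1284 bp for the 114 wide peaks from 26 to 28 Mb and 1134 bp for the 24 beyond 28 Mb. The interquartile range within such a 2 Mb stretch could be narrow, for example 1399 to 1538 bp from 20 to 22 Mb. In the same stretches the narrower Uextra peaks had medians of 805, 608, 581, 505 and 412 bp, with a reversal between 16 and 22 Mb, where the medians were 546, 568 and 581 bp. In the first 4 Mb the order did not hold, with wide-peak medians of 1121 bp (32 peaks, 0 to 2 Mb) and 1047 bp (52 peaks, 2 to 4 Mb).

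Peak starts on Uextra were spaced by multiples of a distance that shrank in step with the widths. This local spacing unit was estimated only from distances between neighbouring peaks that were both narrow, within 500 kb on each side. It is the length whose whole multiples best held the start-to-start distances, measured by the mean cosine of distance over unit, which would be 1 if every distance were an exact multiple. The unit was 994 bp at 5 Mb, 868 bp at 10 Mb, 818 bp at 15 Mb, 784 bp at 20 Mb, 734 bp at 25 Mb and 696 bp at 27 Mb, with mean cosines of 0.51 to 0.58. It could be estimated for 919 of the 1007 wide peaks, with a range of 648 to 1114 bp. For the other 88, of which 61 lay at low coordinates up to 3007436 and 27 from 27956187 on, the mean cosine stayed under 0.3 or fewer than 50 distances were at hand. The lengths of the scaffolds joined into Uextra were not used here.

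**Figure D2:**
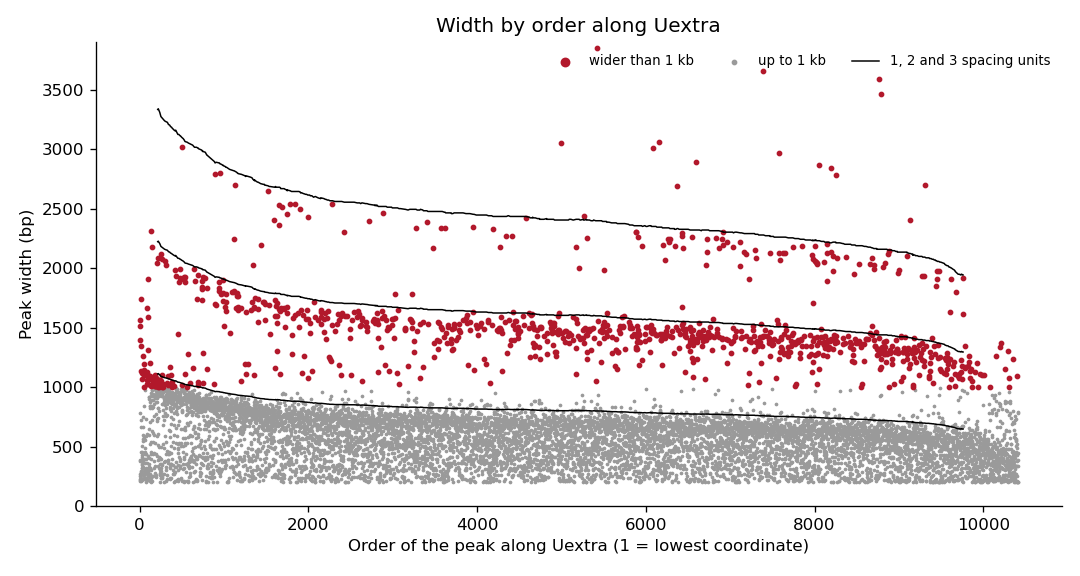
Width in bp of each Uextra peak by its order along the sequence, with peaks wider than 1 kb in red and narrower ones in grey. Black lines show 1, 2 and 3 local spacing units. Most red points run just under the line for 2 units, and the next group runs just under that for 3. The 4 peaks wider than 3900 bp are not drawn.

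In spacing units, the widths of the wide peaks fell into bands just short of whole numbers. The fullest step of 0.1 units was 1.8 to 1.9 units, with 315 peaks, against 3 peaks at 2.1 to 2.2 units. The next crest was at 2.8 to 2.9 units, with 45 peaks, followed by 5 peaks at 3.8 to 3.9 units and 6 at 4.8 to 4.9 units. Counting each band from 0.4 units under a whole number to 0.1 above it, band 2 held 672 of the 919 wide peaks (73.1%, 95% Wilson interval 70.2 to 75.9%). Band 3 held 106 (11.5%), band 4 held 9 and band 5 held 7. Bands so set take in as much of the scale as the gaps between them. The 1 kb limit also left 5737 peaks of band 1 among the narrow Uextra peaks. Only 1 wide peak lay above band 5, at 7.85 units. Band 1 held 19 peaks with a median of 1036 bp, all from the first 6 Mb of Uextra, where the unit was longest.

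The remaining 105 wide peaks lay between the bands. Of these, 90 were 1.13 to 1.60 units wide, with a median of 1141 bp, and 15 were between 2.13 and 3.47 units. The limits of the bands were set after the widths had been looked at. In base pairs, band 2 ran from 1069 to 2117 bp (median 1440) and band 3 from 1801 to 3022 bp (median 2177), so the bands overlap unless the local unit is taken into account. Within band 2 the median width was 1992 bp from 2 to 4 Mb (9 peaks) and 1883 bp from 4 to 6 Mb (22 peaks). It was 1500 bp from 14 to 16 Mb (44 peaks) and 1277 bp from 26 to 28 Mb (80 peaks).

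The position of the wide peaks followed the same unit as their width. Distances were measured from the start of the preceding Uextra peak, whatever its width, which leaves the width of the wide peak itself out. For 853 wide peaks such a distance of at most 6 kb was at hand. It was within 0.1 units of a whole number for 465 (54.5%, 95% Wilson interval 51.2 to 57.8%) and within 0.2 units for 668 (78.3%). A tolerance of 0.1 takes in 20% of the scale. The nearest whole number was 1 for 214 of these peaks, 2 for 251, 3 for 165 and 4 for 101. Towards the next start, 485 of 814 distances (59.6%) were within 0.1 units, but these distances include the width of the wide peak itself. That share therefore cannot tell position apart from width. Of the peaks of band 2 with a preceding start in reach, 57.1% (358 of 627) were within 0.1 units, and of those of band 3, 56.4% (57 of 101). None of these distances entered the estimate of the unit, but they come from the same list and have no test.

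**Figure D3:**
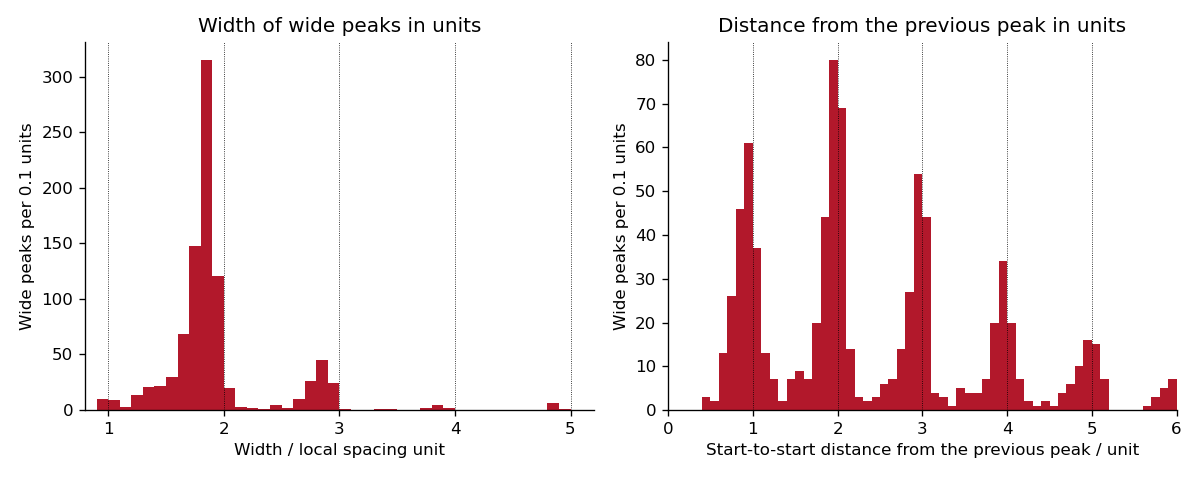
Left, number of wide Uextra peaks per 0.1 units of width over the local spacing unit, up to 5.1 units (1 wider peak is not drawn). Right, number per 0.1 units of the start-to-start distance from the preceding Uextra peak, up to 6 units. Dotted lines mark whole numbers, and the bars crowd around them on the right and just short of them on the left.

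The 10 widest peaks illustrate the bands. The widest, at Uextra:23048327-23054262, was 5936 bp or 7.85 units of 756 bp and scored 198.47. The next 7 were all of band 5. They stood at Uextra:7713678-7718079 (4402 bp, score 152.09), Uextra:12802689-12806749 (4061 bp, score 133.91) and Uextra:16000703-16004667 (3965 bp, score 106.92). Then came Uextra:18449622-18453471 (3850 bp, score 241.59), Uextra:22857767-22861423 (3657 bp, score 119.55), Uextra:25842051-25845642 (3592 bp, score 221.94) and Uextra:25889564-25893027 (3464 bp, score 154.75). Their ratios of width to unit ran from 4.81 to 4.99. The last 2 of the 10, at Uextra:20084699-20087761 (3063 bp, score 164.84) and Uextra:17493925-17496976 (3052 bp, score 246.20), were 3.92 and 3.81 units wide. Scores of the 10 ran from 106.92 to 246.20.

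Among the 123 wide peaks of at least 2 kb, the fullest 200 bp window was 2003 to 2202 bp, with 58 peaks. It begins at the lower limit of the search, so it does not mark a separate width by itself. Of the 55 in it that had a local unit, 48 were of band 3 and 4 of band 2. Their scores ran from 81.52 to 266.45, with a median of 124. The highest-scoring were 2125 bp at Uextra:24515663-24517787 (score 266.45), 2087 bp at Uextra:25618238-25620324 (249.28) and 2122 bp at Uextra:26069035-26071156 (243.89). Scores of 240.83, 240.06 and 235.49 followed, at widths of 2032, 2196 and 2091 bp. Of the 6, only that of 2196 bp, at Uextra:7910414-7912609, lay outside band 3, at 2.43 units.

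Scores of the wide peaks formed a main class and a smaller, higher one. In the main class 712 peaks (70.7%) scored from 80 to under 160, with the fullest step of 10 at 100 to 110 (146 peaks). The number per step fell to 17 at 180 to 190 and was higher again at 220 to 230, with 35 peaks. From 200 to under 300 there were 146 peaks (14.5%), the highest at 271.95. No wide peak scored between 280 and 320. Only 4 scored from 300 to under 400, 15 scored 400 or more, and 55 (5.46%) scored under 80. The class from 200 to under 300 had a median width of 1501 bp (quartiles 1403 and 1674 bp), that from 80 to under 160 had one of 1429 bp (1306 and 1589 bp), and the peaks under 80 had one of 1175 bp.

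Scores overlapped widely between the width bands. The median was 113 in band 1 (19 peaks), 120 in band 2 (interquartile range 102 to 144), 128 in band 3 (113 to 189) and 155 over the 17 peaks of bands 4, 5 and 8. The 15 peaks above band 2 that were in no band had a higher median, of 211 (quartiles 113 and 231) and scores of 65.95 to 249.28. A score of at least 200 was held by 101 peaks of band 2 (15.0%), 24 of band 3 (22.6%), 3 of the 17 wider ones and 9 of the 15 in no band above band 2 (60.0%). The same score was reached by 5.05% of the 5737 narrow Uextra peaks of 1 unit (band 1), whose median was 94.2. No peak of band 3 or wider scored under 80, against 19 of band 2, 18 of the 90 between bands 1 and 2 and 1 of those 15. Across all 1007 wide peaks, the correlation of width with score, given as a description, was 0.23 by Spearman's rho and 0.07 by Pearson's r (0.18 on a log scale). Within band 2 alone, rho was 0.21 (672 peaks). These points share the libraries and the peak calling.

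**Figure D4:**
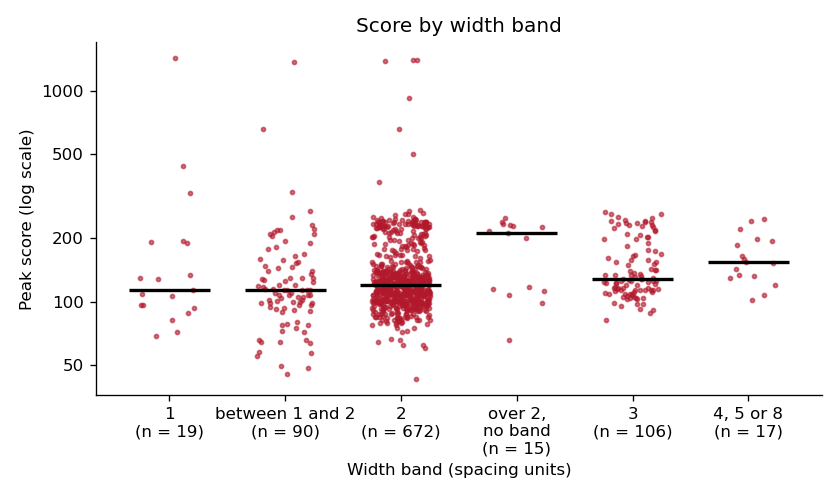
Score of each wide Uextra peak (log scale) by its width band in local spacing units, with the median as a black bar. Medians are 113, 113, 120, 211, 128 and 155 from left to right, the 211 being that of 15 peaks above band 2 in no band, and the points of all groups overlap. The 88 peaks with no unit are not drawn.

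The strongest wide peaks were set apart from both classes. The 10 with the highest score lay at Uextra:597375-599114 (1740 bp, score 1516.80), Uextra:3355766-3356935 (1170 bp, 1429.95), Uextra:7760878-7762619 (1742 bp, 1407.82) and Uextra:16676453-16678068 (1616 bp, 1407.82). The fifth to seventh were Uextra:16603355-16604980 (1626 bp, 1391.88), Uextra:5249061-5250209 (1149 bp, 1374.77) and Uextra:18692292-18693911 (1620 bp, 928.84). The last 3 were Uextra:1776119-1777432 (1314 bp, 823.91), Uextra:4484515-4485675 (1161 bp, 657.60) and Uextra:23538501-23539795 (1295 bp, 657.52).

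The 7 with a score over 900 had widths of 1149, 1170, 1616, 1620, 1626, 1740 and 1742 bp. Those of 1616, 1620 and 1626 bp were 2.00, 2.04 and 2.01 units wide, over the crest of 1.8 to 1.9 units. The peak of 1742 bp was 1.92 units wide and that of 1295 bp was 1.72, below the crest. At 1.10, 1.17 and 1.15 units, the peaks of 1170, 1149 and 1161 bp were likewise wider than 1 unit. No sequence of these regions was at hand, so whether they are copies of one another was not tested. At the other end, all 6 wide peaks with a score under 40 lay in the first 2 Mb of Uextra, the lowest being 24.63 at Uextra:413742-415138 (1397 bp) and 24.64 at Uextra:387515-389030 (1516 bp). The 32 wide peaks of that stretch had a median score of 99.6, and its highest was the top score of 1516.80.

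Identical scores were common. The 1007 wide peaks held only 320 distinct scores at the deposited 2 decimals, and 869 of them (86.3%, 95% Wilson interval 84.0 to 88.3%) had the exact score of at least 1 other wide peak. As many as 568 (56.4%) had a score held by 5 or more of them, and 188 (18.7%) one held by 10 or more. The most frequent score was 106.92, held by 19 wide peaks with widths of 1096 to 3965 bp. It was followed by 101.07 (16 peaks, 1205 to 2058 bp) and 111.68 (13 peaks, 1248 to 1912 bp). The scores of 122.01 (1041 to 2244 bp), 121.39 (1072 to 2043 bp), 114.08 (1123 to 2654 bp) and 98.77 (1062 to 2026 bp) came next, with 12 peaks each. Each of these 7 sets was spread over more than 20 Mb of Uextra. The closest starts within the set of 106.92 were 138691 bp apart, and those within the set of 101.07 were 30449 bp apart. The same 7 scores also occurred in 26 to 49 narrow Uextra peaks each.

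The shared scores stood on a ladder with nearly even rungs. Between 100 and 120, 33 shared scores held 268 wide peaks, and neighbouring scores differed by 0.57 to 0.61 (median 0.60). From 100.50 upwards the rungs were 101.07, 101.65, 102.23, 102.82, 103.40, 103.98, 104.57, 105.15, 105.74, 106.33 and 106.92. Between 120 and 140 the 32 shared scores were 0.61 to 0.65 apart, and between 80 and 100 the 31 shared scores had a median step of 0.565. The step thus widened slowly with the score. From 200 to 280 the smallest step was 0.73 and many rungs were empty, with 37 shared scores for 110 wide peaks. Between 100 and 106, the scores off the ladder were 100.37, 104.05 and 104.14, held by 1 wide peak each. Over the whole range, 138 wide peaks (13.7%) shared their score with no other wide peak, on or off the ladder.

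**Figure D5:**
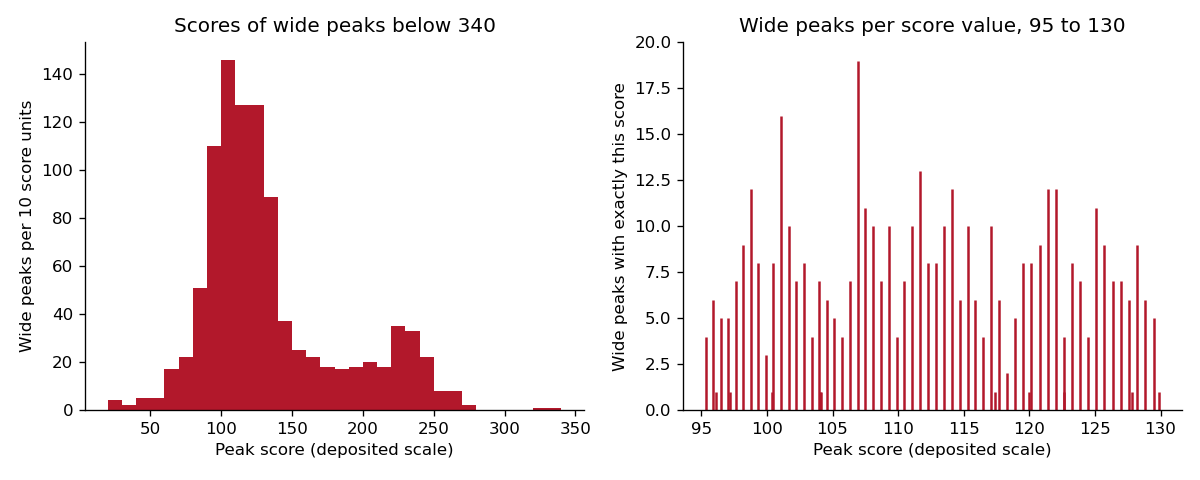
Left, number of wide Uextra peaks per 10 units of score, with the main class at 80 to 160 and a lower crest at 220 to 240 (17 peaks of 340 or more are not drawn). Right, number of wide Uextra peaks with exactly each score between 95 and 130. The tallest line is the score of 106.92, with 19 peaks, and the lines are about 0.6 apart.

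The rungs were shared beyond the wide peaks. Of the 1007, 927 (92.1%) had a score that also occurred among the narrow Uextra peaks, 667 (66.2%) one that occurred on U, the other collection of unplaced scaffolds, and 239 (23.7%) one that occurred on the chromosome arms. For mapped heterochromatin it was 31 (3.08%). A larger set has more chances to hold a given score, and so has a set with more peaks at similar scores. The sets held 9405, 794, 1980 and 540 peaks in the same order. U had fewer peaks than the arms and a larger share, but its wide peaks scored higher (median 113 against 42.8). Whether the shares reflect more than set size and score range was not tested. Most wide peaks of equal score differed in width. For 185 wide peaks (18.4%, 95% Wilson interval 16.1 to 20.9%) there was another of the same score and a width within 20 bp. The share to be met with unrelated score and width was not computed. Widths were compared in bp, while the recurrent width shrank along Uextra. Just 4 peaks, in 2 couples, were equal in score and width. These couples were 1405 bp at Uextra:19815429-19816833 and Uextra:23318184-23319588 (score 120.16), and 1480 bp at Uextra:17243725-17245204 and Uextra:18041947-18043426 (score 139.03). Equal widths alone occurred for 617 wide peaks among 629 distinct widths, with at most 7 peaks, of 1500 bp.

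Of the 1007 wide peaks, 191 (19.0%) had another wide peak as a direct neighbour in order. Wide peaks were 9.67% of Uextra peaks, but most peaks have a neighbour on each side. The matching share is therefore larger than 9.67%, and it was not computed. Between neighbouring wide peaks the median gap was 16266 bp (interquartile range 6549 to 37799 bp), with a minimum of 54 bp. To the nearest Uextra peak of any width the median gap was 849 bp, and 367 wide peaks (36.4%, 95% Wilson interval 33.5 to 39.5%) had one within 400 bp, against 41.0% of the narrow peaks. Among peaks with at least the median score of the whole list, this share of wide peaks was 19.0%. Another wide peak within 1 kb was found for 76 of the 1007 (7.55%, 6.07 to 9.34%), which formed 30 couples, 4 runs of 3 and 1 run of 4.

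The run of 4 spanned Uextra:19512494-19520942, with widths of 1380, 1423, 1385 and 2263 bp and scores of 123.86, 106.92, 83.68 and 114.08. At Uextra:24204201-24210816 the 3 peaks were 2061, 1270 and 2186 bp wide, with scores of 112.88, 131.37 and 139.03. Those at Uextra:24255450-24261203 were 2047, 2034 and 1280 bp wide (231.70, 176.53 and 83.68), and those at Uextra:24136454-24142991 were 1127, 2109 and 2076 bp wide (140.31, 173.07 and 166.21). The 3 at Uextra:14407957-14414394 were nearly alike in width, at 1499, 1502 and 1531 bp, but scored 119.55, 257.05 and 123.24. Neighbours in a run could therefore have scores as far apart as 119.55 and 257.05, on a scale that is not given. Of these 5 runs, 3 lay within 150 kb of each other.

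Peaks wider than 1 kb elsewhere are set beside the wide Uextra peaks here. By median, those of Uextra were narrower than on U and the arms, but about as wide as in mapped heterochromatin. Their median score was above that of each other set, and near that on U. They were 9.67% of the peaks of Uextra, against 36.8% on U (292 of 794). The share was 17.1% (339 of 1980) over the 6 chromosome arms, chromosome 4 included, and 13.5% (73 of 540) over the mapped heterochromatin scaffolds. Their median width of 1431 bp stood against 1667 bp on U, 1966 bp for the arms and 1434 bp in mapped heterochromatin. The widths diverged most at the upper end. A width of at least 5 kb was found for 1 wide Uextra peak, for 6 on U (2.05%), for 112 of the arm peaks (33.0%) and for 5 in mapped heterochromatin (6.85%).

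Median scores were 120.78 on Uextra, 113 on U, 42.8 for the arms and 26.1 in mapped heterochromatin. In the same order, a score of at least 100 was held by 78.6%, 69.5%, 9.44% and 12.3% of the wide peaks. A score of at least 200 was held by 16.4% of the wide Uextra peaks, 3.42% of those on U (10 peaks), 5.31% of those along the arms (18 peaks) and 6.85% in mapped heterochromatin (5 peaks). An exact score shared within the set was found for 86.3% on Uextra, 64.4% on U, 34.8% for the arms and 27.4% in mapped heterochromatin. Among the narrow Uextra peaks it was 87.2%, so such sharing was not particular to the wide ones. Larger sets have more chances to share. No difference between these sets was tested, since width chose the peaks of each set and the score comes from the same peak calling.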

How the data were processed

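The authors deposited 1 peak list for 3 ChIP libraries, with an antibody labelled as anti-tango, and 3 input libraries. Per the file headers, the peaks are from MACS on FlyBase release 5. The submitters' processing notes name BDGP5, MACS2, BWA and CASAVA, in versions 1.7.0.2 and 1.7.0.3. The deposited score is the authors' own value, of a scale not given in the sources used here, as are the threshold, the handling of reads with several alignments and the pooling of replicates. The other deposited values, start and end, are 1-based, with no value per library. Depth is therefore unknown, and intervals cover counting error only.

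Peaks were read with Python 3.11.15, pandas 2.3.3, numpy 2.4.6 and scipy 1.17.1. The spacing unit was searched from 600 to 1200 bp in steps of 2 bp, over start distances of at most 6 kb. That step was tested on simulated data. Named peaks were the 10 strongest, the 10 widest, 3 on each side of the limit (with 2 tied), the 5 most shared scores (with 2 more tied for the last places), the 5 longest runs and the fullest width window. Members and lists were chosen with earlier results of these data known. The study of spacing units, the couples equal in score and width, the lowest scores and the score ladder were added after their values were seen. Tried alternatives were other width limits, score limits, tolerances and merging.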

Additional observations from a re-analysis of the deposited data

How the results depend on the processing

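No paired analysis was possible because values per library are absent from the list, and no replicate could be left out. Of 71 alternatives over 14 results, 41 stayed within the 95% counting interval of the reported value (for the width window, within 1.5 times). Some of the 41 could not move. Spearman's rho is unchanged by a log scale, and the width window uses only peaks of at least 2 kb, whatever the width limit. The alternatives for spacing units were chosen after seeing the data. With limits of 900 and 1200 bp there were 1245 and 840 wide peaks, or 11.96% and 8.07% of Uextra peaks. They covered 26.2% and 20.1% of its covered bases, with median widths of 1377 and 1479 bp and 63.7% and 79.8% in band 2. At 900 bp the median gap was 12660 bp and 23.3% had a like score and width. At 1200 bp, 82.3% scored at least 100. At or above the list median score of 57.7, wide peaks were 16.0% of peaks and 30.6% of bases, 19.0% had a neighbour within 400 bp, and 69.8% of preceding distances were near whole units. After merging within 100 bp these peaks were 12.4% and 28.5%, with a median gap of 12789 bp, 22.8% alike in score and width and 10.5% with a wide neighbour within 1 kb. Other moves follow from the tolerance itself. The fullest window held 30 peaks at 100 bp and 88 at 400 bp. Equal score and width held for 0.397% with equal widths and 54.0% within 100 bp. A neighbour was found for 32.1% within 300 bp and 63.6% within 1 kb, and a wide one for 2.28% within 400 bp and 34.3% within 5 kb. A score of at least 200 was held by 16.4%, and 78.3% of preceding distances were within 0.2 units. Except for those that follow from fewer peaks or wider tolerances, the cause was not tested.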
